A study of Homo sapiens with 16 samples.

Results

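Claudins and epithelial junction genes encode the proteins that seal, anchor and shape an epithelial sheet. The set described here held 37 genes chosen by symbol, and 36 of them were measured among the 18132 genes that a probe set of a single gene represented. They were 14 claudins, 6 other tight junction genes, 6 desmosome genes, 3 keratins, 4 other genes of the epithelial surface and its membrane traffic (EPCAM, CDH3, RAB25 and ST14) and 3 regulators of epithelial genes (ESRP1, ESRP2 and GRHL2). F11R, which encodes a junctional adhesion molecule, had no such probe set and was not analysed here. Each gene was read from the brightest of its probe sets by mean over the 16 arrays, which was the only one for 12 genes and 1 of several for 24.

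The arrays (Affymetrix PrimeView) measured mRNA in H1 human embryonic stem cells, an established pluripotent line, on the way to definitive endoderm, the germ layer that gives rise to gut, liver and pancreas. There were 8 groups of 2 arrays. Control cells carried an empty lentiviral vector and were collected as pluripotent cells (day 0) and at days 3, 4 and 5. GATA6-depleted cells carried a lentiviral short hairpin RNA against GATA6, an endoderm transcription factor, and were collected at days 3, 4 and 5, so that no depleted day 0 sample entered any comparison. Rescue cells carried the same hairpin together with a human GATA6 cDNA insensitive to it, switched on by doxycycline. They were collected at day 5 after 96 h in, by the labels, 60 ng/mL doxycycline, an agent that no other group received. All cells past day 0 had 50 ng/mL activin A with 10 ng/mL BMP4 and 20 ng/mL FGF2 for 2 days, and then activin A without the others for 1, 2 or 3 days. The vector-carrying lines were polyclonal, and replicates came, by the study's account, from separate rounds of differentiation.

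Tight junctions close the space between neighbouring epithelial cells. Claudins form their strands and set which ions and solutes pass, occludin and the related MARVEL-domain proteins lie in the same strands, and the zonula occludens proteins and cingulin tie the strands to the actin cytoskeleton. Desmosomes are spot-like junctions in which desmosomal cadherins are linked through plakoglobin, plakophilins and desmoplakin to keratin filaments. Pluripotent stem cells are themselves an epithelium. In gastrulation, cells that will form mesoderm and endoderm leave such an epithelium through the primitive streak, where E-box-binding repressors such as the SNAIL, ZEB and TWIST proteins lower epithelial genes, and definitive endoderm then becomes an epithelial sheet again.

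Promoter windows of 22 of the 37 genes were used, as 35 windows (RefSeq, GRCh38.p14). Each ran from 250 bases before to 50 bases after an annotated gene start. CLDN23, ESRP1 and GRHL2 were among the genes left out, so that the shares below do not cover them. Windows over all genes were not limited in the same way, so that the sets compared were not chosen alike. On both strands, 15 of the 35 windows (42.9%) held CACCTG, the E-box form that SNAIL and ZEB proteins bind, against 20.6% of 35116 windows over all genes. A GATA site (AGATAA or TGATAA) stood in 3 windows (8.57%, against 16.3% of all windows) and a FOXA site (TGTTTAC) in 2 (5.71%, against 3.42%). The GRHL site AACCGGTT was in none of the 35, and in 0.134% of all windows. These matches are descriptions of letters. Binding was not measured here, and which start the cells used was not known. The windows below belong to some of the genes on which the results turn, and capitals mark matches of these motifs on either strand. The windows of CLDN1, CLDN4, CLDN10, CLDN11, KRT8 and MARVELD2, also genes with called differences, are not shown and held none of these motifs. CLDN18 and CLDN3 rose most in rescue cells, OCLN fell and returned in the control course, CLDN7 held the most E-boxes and RAB25 was low in depleted cells.
CLDN18, upstream start, chr3:137998566-137998865, plus strand: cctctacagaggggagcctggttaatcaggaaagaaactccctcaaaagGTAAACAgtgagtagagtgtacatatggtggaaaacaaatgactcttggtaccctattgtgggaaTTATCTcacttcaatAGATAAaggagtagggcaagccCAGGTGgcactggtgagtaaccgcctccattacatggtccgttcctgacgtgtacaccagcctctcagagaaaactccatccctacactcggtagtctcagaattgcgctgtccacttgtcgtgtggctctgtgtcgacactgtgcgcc
CLDN18, downstream start, chr3:138009915-138010214, plus strand: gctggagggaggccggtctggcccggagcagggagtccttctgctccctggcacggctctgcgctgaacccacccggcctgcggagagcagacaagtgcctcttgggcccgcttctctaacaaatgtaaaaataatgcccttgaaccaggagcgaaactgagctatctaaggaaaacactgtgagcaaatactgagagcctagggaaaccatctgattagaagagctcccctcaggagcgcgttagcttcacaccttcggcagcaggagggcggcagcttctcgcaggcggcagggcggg
CLDN3, chr7:73770221-73770520, minus strand: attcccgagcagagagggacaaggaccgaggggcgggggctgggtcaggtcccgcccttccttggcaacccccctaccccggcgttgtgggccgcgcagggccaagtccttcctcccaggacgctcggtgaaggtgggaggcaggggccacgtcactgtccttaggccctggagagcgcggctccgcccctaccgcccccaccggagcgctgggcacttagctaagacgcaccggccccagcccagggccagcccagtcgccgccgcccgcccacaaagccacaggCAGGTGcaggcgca
CLDN7, chr17:7262429-7262728, minus strand: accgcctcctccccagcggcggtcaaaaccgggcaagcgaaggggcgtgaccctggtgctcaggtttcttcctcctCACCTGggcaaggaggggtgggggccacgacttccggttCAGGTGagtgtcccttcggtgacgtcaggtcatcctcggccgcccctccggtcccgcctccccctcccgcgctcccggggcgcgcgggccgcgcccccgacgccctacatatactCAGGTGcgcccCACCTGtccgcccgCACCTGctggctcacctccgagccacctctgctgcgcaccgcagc
OCLN, chr5:69492540-69492839, plus strand: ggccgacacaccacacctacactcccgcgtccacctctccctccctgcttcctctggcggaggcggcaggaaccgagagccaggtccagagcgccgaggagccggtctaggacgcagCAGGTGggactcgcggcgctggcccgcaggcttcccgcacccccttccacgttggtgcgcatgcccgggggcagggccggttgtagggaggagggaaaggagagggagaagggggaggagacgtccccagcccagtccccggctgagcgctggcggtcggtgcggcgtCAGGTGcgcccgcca
RAB25, chr1:156060910-156061209, plus strand: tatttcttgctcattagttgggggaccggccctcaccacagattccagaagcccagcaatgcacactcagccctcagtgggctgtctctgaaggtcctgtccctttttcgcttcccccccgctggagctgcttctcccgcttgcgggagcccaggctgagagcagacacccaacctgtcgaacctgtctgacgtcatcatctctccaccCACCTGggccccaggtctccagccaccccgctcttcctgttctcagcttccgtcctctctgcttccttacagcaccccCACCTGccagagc

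The upstream CLDN18 window held a FOXA match beginning at base −201 from the start, GATA matches at −136 and −121 and an E-box at −99. None of these motifs was in the downstream CLDN18 window. The CLDN7 window shown held 5 E-boxes, at −174, −135, −20, −9 and 5, while its other window, not shown, held none of these motifs. The OCLN window shown held 2 E-boxes, at −133 and 35, and an overlapping OCLN window, not shown, held 1, at −33. RAB25 held 2, at −41 and 37, and the CLDN3 window held 1, at base 36 after the start.

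Values below are log2 levels as deposited, so that a difference of 1 is a doubling, and levels of different genes cannot be set against each other because each probe set binds its target differently. The lower quartile of all gene levels lay between 3.36 and 3.50 on the 16 arrays. CLDN5 (2.67 to 3.31), CLDN14 (2.36 to 2.80) and TJP3 (2.63 to 3.47) were below that range's upper end on all 16 arrays, as was CLDN18 on 13. A gene was called where its adjusted p in the limma fit over all genes was under 0.05. The check of the labels held: GATA6 read 1.72 and 1.86 at day 0 and 11.44 to 11.60 in control cells from day 3 on, fell to 9.76 and 9.90, then 7.92 and 6.62, then 6.37 and 6.62 in depleted cells at days 3, 4 and 5, and was 8.43 and 8.31 in rescue cells. Whether this probe set reads the cDNA as well as the cells' own GATA6 was not known. The study reported GATA6 overexpression in the rescue line under doxycycline, at a dose other than that of the labels. The rescue reading here may therefore not stand for total GATA6. The 10 definitive endoderm markers averaged 3.37 and 3.44 at day 0 and 9.35 and 9.66 in control cells at day 5. The arrays of a pair differed by a median of 0.07 over the 36 genes in rescue cells and of 0.27 to 0.33 in control cells at days 3, 4 and 5, with CLDN11 the widest gap in each of these 3 control pairs (1.53 to 1.84).

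**Figure D1:**
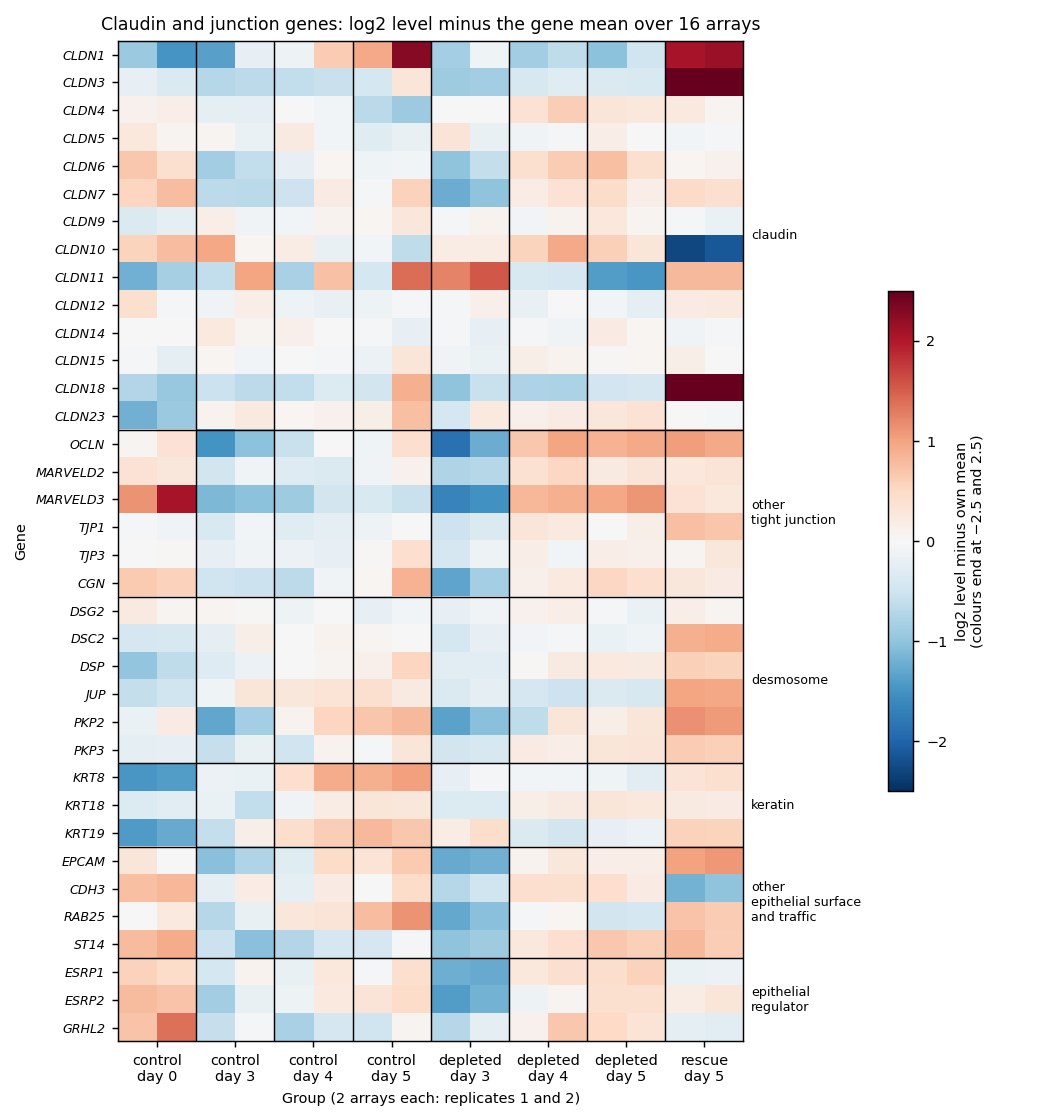
Log2 level of the 36 measured genes (rows, grouped by role) on the 16 arrays (columns, 2 for each group), each as the difference from the gene's own mean over all arrays. In both day 3 groups the pair means of tight junction genes outside the claudins and of epithelial regulators lie below the genes' own means. CLDN3 and CLDN18 are high and CLDN10 is low on the 2 rescue arrays. The control pairs of days 3 to 5 differ more than the rescue pair.

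In the first 3 days of differentiation control cells lost mRNA of most tight junction genes outside the claudin family and of all 3 epithelial regulators of the set, while keratins KRT8 and KRT19 rose. Of the 36 genes 15 were lower and 5 higher at day 3 than at day 0, together 55.6%, where 14.6% of all genes were lower and 13.2% higher (27.8% in either direction). The median difference was −0.16 over the 36 genes and −0.01 over all genes. All 3 regulators and all 4 surface and traffic genes fell, as did 4 of the 6 tight junction genes that are not claudins.

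MARVELD3, a MARVEL-domain tight junction protein, was 6.95 and 7.89 at day 0 and 4.70 and 4.81 at day 3. The fall of 2.67 (SE 0.23, limma adjusted p 2.57e-06), a 6.35-fold change, was the largest among the 36. OCLN, which encodes occludin, went from 6.98 and 7.28 to 5.42 and 5.88 and fell by 1.48 (SE 0.25, limma adjusted p 0.000658). CGN, which encodes cingulin, fell by 1.13 (SE 0.24). Among claudins, CLDN6, a claudin of early embryonic epithelium, fell by 1.28 (SE 0.17) and CLDN7 by 1.32 (SE 0.23). CLDN23 rose by 1.24 (SE 0.22).

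The epithelial regulators fell with them. ESRP1 and ESRP2 are RNA-binding proteins that direct epithelial splicing, and GRHL2 is a grainyhead-like transcription factor of epithelial genes. ESRP2 stood at 7.95 and 7.88 at day 0 and at 6.29 and 6.98 at day 3, a fall of 1.28 (SE 0.19). GRHL2 fell by 1.34 (SE 0.28) on its brightest probe set, while of its 4 dimmer probe sets 2 gave −0.59 and −0.49, both called, and 2 gave −0.04 and −0.27 (limma adjusted p 0.936 and 0.245). ST14, the membrane protease matriptase, fell by 1.64 (SE 0.18), and its other probe set gave 0.17 (limma adjusted p 0.503). The remaining genes that fell, by 0.38 to 1.09, were PKP2, EPCAM, CDH3, ESRP1, MARVELD2, RAB25 and CLDN4.

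Beside CLDN23, the genes that rose to day 3 were the keratins KRT8 and KRT19 and the desmosome genes JUP and DSP. KRT8, a keratin of simple epithelia, was 8.91 and 8.96 at day 0 and 10.21 and 10.19 at day 3, a rise of 1.26 (SE 0.15, limma adjusted p 3.2e-05). KRT19, another such keratin, rose by 1.11 (SE 0.19). JUP, which encodes plakoglobin, rose by 0.65 (SE 0.13) and DSP, which encodes desmoplakin, by 0.57 (SE 0.15), although DSP was no longer called without control day 0 replicate 1 or without control day 3 replicate 2 (0.39 to 0.49). All 8 probe sets of KRT8 are of a type that can bind related transcripts as well. The same holds for both KRT18 probe sets, the GRHL2 one used, the dimmer MARVELD2 ones and a dimmer one each of CLDN11, CLDN18 and MARVELD3.

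Repressors of epithelial genes moved the other way over the same days. Of 10 measured, 6 were higher and 1 lower at day 3, with a median difference of 1.18. ZEB2 rose by 3.54, ZEB1 by 1.95, SNAI1 by 1.88 and SNAI2 by 1.80. The mean level of this list was 3.98 and 4.05 at day 0, 5.01 and 5.22 in control cells at day 3 and 4.06 and 4.41 at day 5. The part of the repressors in the levels of the junction genes was not tested.

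From day 3 to day 5 of the control course 14 of the 36 genes rose and 1 fell, together 41.7%, where 6.11% of all genes rose and 5.45% fell (11.6% in either direction). The median difference was 0.44 over the 36 genes and −0.02 over all genes. The rise took in claudins, occludin, keratins, EPCAM and RAB25. The count rested in part on single arrays, being 7 without control day 5 replicate 2 and 8 without control day 3 replicate 1.

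CLDN1, a barrier-forming claudin, was 5.26 and 6.41 at day 3, 6.50 and 7.26 at day 4 and 7.58 and 8.91 at day 5. It rose by 2.41 (SE 0.45, limma adjusted p 0.00433), or 5.31-fold. Without control day 3 replicate 1 or control day 5 replicate 2 the rise was 1.74 to 1.83 with adjusted p of 0.0501 and 0.0509, and of its 3 other probe sets one gave 0.38 (limma adjusted p 0.364) and the others 2.47 and 1.48, both called. OCLN returned to 6.79 and 7.32, a rise of 1.41 (SE 0.25), which left it 0.07 under day 0 (95% interval −0.61 to 0.47). EPCAM, an epithelial adhesion molecule of stem cells and endoderm, rose by 1.39 (SE 0.21) after its earlier fall of 1.05. RAB25, a small GTPase of epithelial recycling endosomes, was 6.99 and 7.52 at day 3 and 8.47 and 8.82 at day 5, a rise of 1.39 (SE 0.17, limma adjusted p 0.000311).

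All 3 keratins and 2 of the 6 desmosome genes, PKP2 and DSP, were higher at day 5 than at day 3. PKP2, a plakophilin that links desmosomal cadherins to desmoplakin, rose by 1.83 (SE 0.27) after a fall of 1.09 to day 3. KRT8 rose by 1.11 (SE 0.15) and KRT19 by 0.97 (SE 0.19), the latter by 0.60 without control day 3 replicate 1. CGN rose by 0.97 (SE 0.24), but by 0.56 without control day 5 replicate 2 (limma adjusted p 0.171). The other genes that rose, by 0.56 to 0.93, were CLDN7, ESRP2, KRT18, CLDN6, CLDN3 and DSP. CLDN4 was the only called gene that fell, by 0.55 (SE 0.12), with −0.11 and −0.25 on its other probe sets (limma adjusted p 0.842 and 0.675).

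Over the whole course from day 0 to day 5, 12 of the 36 genes were higher and 7 lower, where 15.9% of all genes were higher and 18.1% lower (34% in either direction). By role, 4 claudins were higher and 3 lower, and 1 of the 4 surface and traffic genes was higher and 2 lower. All 3 keratins and 4 of the 6 desmosome genes were higher and none of these 9 was lower, while MARVELD3, GRHL2 and ST14 stayed below day 0. KRT8 reached 11.25 and 11.38, a rise of 2.38 (SE 0.15, limma adjusted p 9.41e-08), and KRT19 went from 8.70 and 8.85 to 10.93 and 10.79, a rise of 2.08 (SE 0.19). CLDN1 was 2.81 higher (SE 0.45) and CLDN23 1.51 higher (SE 0.22).

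MARVELD3 remained 2.07 below day 0 (SE 0.23, limma adjusted p 1.64e-05). GRHL2 was 1.25 lower (SE 0.28), with 3 of its 4 dimmer probe sets between −0.37 and 0.04 and not called. ST14 was 1.08 lower (SE 0.18), with −0.09 on its other probe set (limma adjusted p 0.730). CLDN10, a claudin that forms ion-selective pores, was 1.02 lower (SE 0.27), CLDN4 0.93 lower (SE 0.12), CLDN6 0.63 lower (SE 0.17) and CDH3, which encodes P-cadherin, 0.56 lower (SE 0.19). The calls of CLDN10, CLDN6 and CDH3 each ended when 1 of 2 or 3 arrays was left out (limma adjusted p 0.0593 to 0.300).

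CLDN18, a claudin of lung and stomach epithelium, was at the dim end until one array of day 5. It was 2.60 and 2.38 at day 0, 2.79 and 2.67 at day 3, 2.72 and 2.99 at day 4 and 2.87 and 4.21 at day 5. The rise of 1.05 (SE 0.30, limma adjusted p 0.0168) thus rested on control day 5 replicate 2, without which it was 0.38 (limma adjusted p 0.159), against 1.72 without replicate 1. It was not called without control day 0 replicate 2 either (0.94, limma adjusted p 0.0916), and its dimmer probe sets gave −0.14 and 0.57 (limma adjusted p 0.635 and 0.180).

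**Figure D2:**
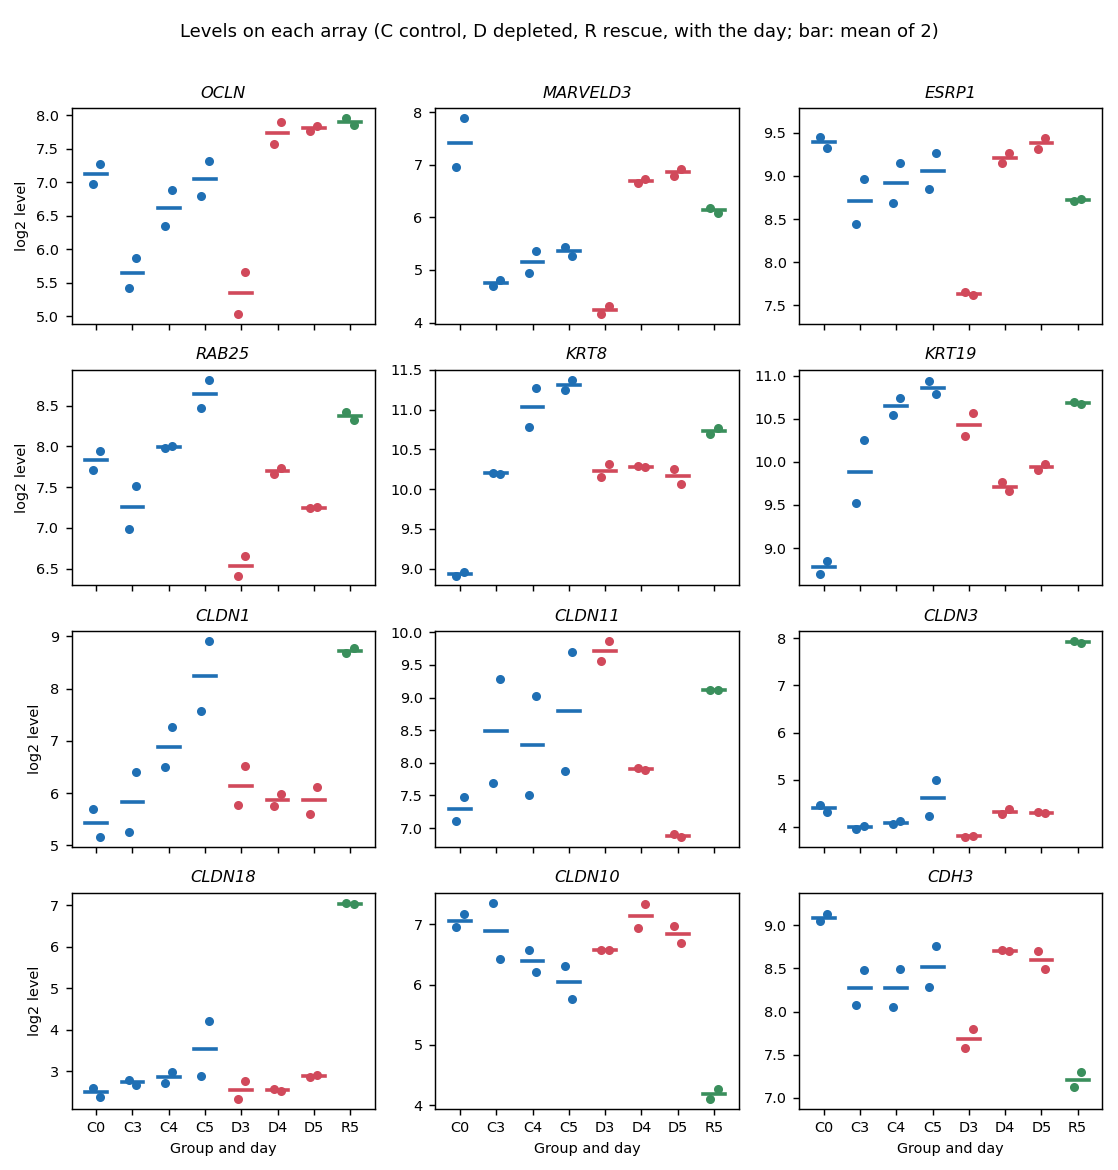
Log2 level (vertical axis, scaled for each gene) of 12 genes on each array in the 8 groups (C control, D depleted, R rescue, with the day of collection), with points for arrays and a bar for the mean of 2. OCLN and MARVELD3 lie higher in depleted than in control cells at days 4 and 5, KRT8 and RAB25 lie lower at day 5, and CLDN3 and CLDN18 stand apart in rescue cells.

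At day 3, when GATA6 mRNA read 9.76 and 9.90 in depleted cells, few junction genes were called against control. None of the 36 was higher and 3 were lower, together 8.33%, where 1.79% of all genes were higher and 1.96% lower (3.75% in either direction). The median difference was −0.18 over the 36 genes and −0.01 over all genes. The 3 were the regulators ESRP1 and ESRP2 and the GTPase RAB25.

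ESRP1 was 8.44 and 8.97 in control cells and 7.65 and 7.61 in depleted cells. It was 1.07 lower (SE 0.19, limma adjusted p 0.00764), a 2.10-fold difference, and the groups did not overlap. ESRP2 was 6.29 and 6.98 in control and 5.76 and 5.98 in depleted cells, 0.76 lower (SE 0.19, limma adjusted p 0.0497). RAB25 was 6.99 and 7.52 in control and 6.41 and 6.66 in depleted cells, 0.71 lower (SE 0.17, limma adjusted p 0.0374). Each of these calls ended when single arrays were left out, that of ESRP1 for 3 of the 16 arrays (limma adjusted p 0.0531 to 0.0719), of RAB25 for 9 and of ESRP2 for 13, arrays of other groups among them because all groups share an estimate of the spread. Without control day 3 replicate 2 the differences of RAB25 and ESRP2 were −0.45 and −0.42 (limma adjusted p 0.235 and 0.288).

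CLDN11, a claudin best known from myelin and testis, had the largest difference that was not called. It was 7.69 and 9.29 in control and 9.56 and 9.86 in depleted cells, a difference of 1.22 (SE 0.59, limma adjusted p 0.316). Both depleted arrays were above both control arrays, but the control arrays lay 1.60 apart. On the probe sets used, all 14 claudins, all 6 desmosome genes and all 3 keratins were without a call at this day. One dimmer probe set of CLDN4 gave 1.12 (limma adjusted p 0.0227) and one of MARVELD3 −0.90 (limma adjusted p 0.0184).

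Among repressors of epithelial genes 3 of 10 were higher in depleted cells at day 3 and none lower, with a median difference of 0.67. SNAI2 was 3.00 higher, TWIST1 2.32 and ZEB1 1.29. The mean of the list was 5.01 and 5.22 in control and 5.96 and 6.03 in depleted cells. Of the 12 adherens junction genes 1 differed (EPB41L5, 0.99 lower), and of 24 other epithelial regulators and proteases ERBB3 (0.64 lower) and SPINT2 (0.53 lower). Whether the repressors bear on ESRP1, ESRP2 or RAB25 was not tested. The mesoderm list averaged 7.07 and 7.40 in control and 7.34 and 7.52 in depleted cells, with none of 9 markers called.

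By day 4 more of the junction genes differed. In depleted cells 8 of the 36 genes were higher and 3 lower than in control cells of the same day, where 14.8% of all genes were higher and 13.3% lower (28.2% in either direction). At 30.6% the called share was near that of all genes. The genes that were higher were OCLN, MARVELD2, MARVELD3 and TJP1, so 4 of the 6 tight junction genes outside the claudins, with CLDN4, CLDN6, ST14 and GRHL2. The lower ones were KRT8, KRT19 and JUP.

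MARVELD3 was 4.94 and 5.36 in control and 6.66 and 6.72 in depleted cells, 1.54 higher (SE 0.23, limma adjusted p 0.000251) or 2.92-fold. OCLN was 6.35 and 6.89 in control and 7.58 and 7.90 in depleted cells, 1.12 higher (SE 0.25, limma adjusted p 0.00448), with 0.85 to 0.96 and adjusted p of 0.0516 and 0.0602 without depleted day 4 replicate 2 or control day 4 replicate 1. MARVELD2, or tricellulin, which seals the corners where cells meet, was 0.79 higher (SE 0.13), with 0.58 and 0.20 on its dimmer probe sets (limma adjusted p 0.0512 and 0.601). TJP1, the scaffold ZO-1, was 0.54 higher (SE 0.12), with 0.09 on its other probe set (limma adjusted p 0.621).

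CLDN4, a sealing claudin, was 0.52 higher (SE 0.12) and CLDN6 0.60 higher (SE 0.17). The call of CLDN4 ended without depleted day 4 replicate 2, and that of CLDN6 without the same array or control day 4 replicate 1 (limma adjusted p 0.0774 to 0.150). On its other 2 probe sets CLDN4 was 2.23 and 2.46 higher. ST14 was 0.92 higher (SE 0.18), with 0.27 on its other probe set (limma adjusted p 0.247). GRHL2 was 3.65 and 4.03 in control and 4.56 and 5.13 in depleted cells, 1.01 higher (SE 0.28, limma adjusted p 0.0164). That call was lost without depleted day 4 replicate 2 or control day 4 replicate 1, and 3 of 4 dimmer probe sets gave −0.11 to 0.37 without a call.

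Of the 3 keratins 2 were lower, and KRT18 (0.15) was not called. KRT8 was 10.78 and 11.28 in control and 10.29 and 10.28 in depleted cells, 0.74 lower (SE 0.15, limma adjusted p 0.00188), or −0.49 without control day 4 replicate 2, still called. KRT19 was 10.55 and 10.74 in control and 9.76 and 9.66 in depleted cells, 0.93 lower (SE 0.19). JUP was 0.77 lower (SE 0.13). PKP2 was not called at day 4 or 5 on the probe set used. Its dimmer probe set read 7.02 and 7.11 in control and 6.14 and 5.50 in depleted cells at day 4. At day 5 that probe set read 7.52 and 7.62 in control and 6.29 and 6.02 in depleted cells. CLDN1 was 6.50 and 7.26 in control and 5.75 and 5.98 in depleted cells, −1.01 and not called (SE 0.45, limma adjusted p 0.119), while one of its other probe sets gave −1.05 (limma adjusted p 0.0431).

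The study counted fewer depleted than control cells from day 3 on, with the largest drop by day 5, and saw more apoptosis from day 2. In such bulk samples a change in the share of a cell type and a change in mRNA per cell cannot be told apart. That holds for days 3, 4 and 5. The 9 pluripotency markers averaged 8.86 and 8.88 in control and 9.63 and 9.82 in depleted cells at day 4, with 6 of 9 higher and none lower, while 9 of the 10 definitive endoderm markers were lower. In depleted cells the endoderm list stood at 5.73 and 6.47. Trophoblast and amnion markers averaged 3.86 and 4.19 in control and 4.40 and 4.40 in depleted cells (2 of 10 higher, 1 lower). Surface ectoderm markers averaged 3.21 to 3.55 in control and 3.13 to 3.21 in depleted cells (none of 6 higher, 1 lower). Their part in the junction gene differences was not tested.

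At day 5, 6 of the 36 genes were higher and 6 lower in depleted than in control cells, where 16.5% of all genes were higher and 16% lower (32.6% in either direction). The called share of 33.3% was near that of all genes, and the median difference was 0.01 over the 36 genes and 0.04 over all genes. CLDN4, CLDN6, CLDN10, OCLN, MARVELD3 and ST14 were higher. CLDN1, CLDN11, RAB25, KRT8, KRT19 and JUP were lower. The pluripotency list averaged 8.96 and 9.11 in control and 9.71 and 9.73 in depleted cells (5 of 9 higher, 2 lower), and 9 of the 10 definitive endoderm markers were lower.

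CLDN1 was 7.58 and 8.91 in control and 5.61 and 6.12 in depleted cells. The difference of −2.38 (SE 0.45, limma adjusted p 0.0012) was the largest of the set at this day, and the depleted arrays lay within 1 of the day 0 arrays (5.70 and 5.16). RAB25 was 8.47 and 8.82 in control and 7.24 and 7.25 in depleted cells, 1.40 lower (SE 0.17, limma adjusted p 4.13e-05). KRT8 was 11.25 and 11.38 in control and 10.25 and 10.07 in depleted cells, 1.15 lower (SE 0.15), and KRT19 0.92 lower (SE 0.19). JUP was 0.69 lower (SE 0.13).

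CLDN11 was 7.87 and 9.71 in control and 6.90 and 6.86 in depleted cells. Its difference of −1.91 (SE 0.59, limma adjusted p 0.0245) was −0.99 without control day 5 replicate 2 (limma adjusted p 0.258), and it was not called either when a depleted day 5 array was left out. Its dimmer probe sets gave −0.75 and −0.01. CLDN11 thus read 9.56 and 9.86, then 7.92 and 7.89, then 6.90 and 6.86 in depleted cells at days 3, 4 and 5, a course in which the arrays of different days did not overlap.

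Of the genes that were higher, MARVELD3 was 5.44 and 5.27 in control and 6.79 and 6.92 in depleted cells, 1.50 higher (SE 0.23, limma adjusted p 0.000271), with 1.42 and 1.08 on its other probe sets. CLDN4 was 4.86 and 4.62 in control and 5.84 and 5.78 in depleted cells, 1.07 higher (SE 0.12, limma adjusted p 2.11e-05), with 1.99 and 1.95 on its other probe sets. ST14 was 0.86 higher (SE 0.18), and its other probe set gave 0.43 (limma adjusted p 0.0498). CLDN6 was 0.67 higher (SE 0.17), or 0.50 without depleted day 5 replicate 1 (limma adjusted p 0.0993). OCLN was 0.75 higher (SE 0.25) and CLDN10 0.80 higher (SE 0.27). These last calls ended without either depleted day 5 array, and also for OCLN without control day 5 replicate 1 (0.48, limma adjusted p 0.265) and for CLDN10 without control day 5 replicate 2 (0.52, limma adjusted p 0.257).

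Days 4 and 5 were not shown to differ in the effect of depletion. None of the 36 genes was called for the difference between the depletion effects of days 5 and 4 in the limma fit, against 0.0938% of all genes (0.0221% higher and 0.0717% lower). The largest sizes were −1.54 for CLDN11 (95% interval −3.35 to 0.26), −1.37 for CLDN1 (−2.74 to 0.01) and −1.10 for RAB25 (−1.62 to −0.58), with adjusted p of 0.621, 0.553 and 0.160. Those tests have wide intervals, since each rests on 4 groups of 2 arrays.

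The effect of depletion did change between days 3 and 4. The difference between the effects was called higher for 8 of the 36 genes and lower for 2, where 8.35% of all genes were higher and 6.95% lower (15.3% in either direction). The median was 0.37 over the 36 genes. Among the 6 tight junction genes outside the claudins 5 were called higher, and none of the 14 claudins or 6 desmosome genes was called in either direction on the probe sets used. Other probe sets of CLDN4 (1.12 and 2.15, limma adjusted p 0.0421 and 0.0034) and of CLDN10 (1.33, limma adjusted p 0.0130) were. MARVELD3 went from an effect of −0.51 at day 3 to 1.54 at day 4 (difference 2.06, SE 0.33, limma adjusted p 0.00112), and ESRP1 from −1.07 to 0.29 (difference 1.36, SE 0.27, limma adjusted p 0.00419). KRT19 went from 0.55 to −0.93 (difference −1.48, SE 0.27, limma adjusted p 0.00264). The 2 effects share no arrays. The calls of OCLN, CGN, ST14, CDH3 and KRT8 each ended when 1 of 2 to 10 arrays was left out (limma adjusted p 0.0525 to 0.164), and the count was 5 without depleted day 4 replicate 2 and 6 without control day 4 replicate 1.

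**Figure D3:**
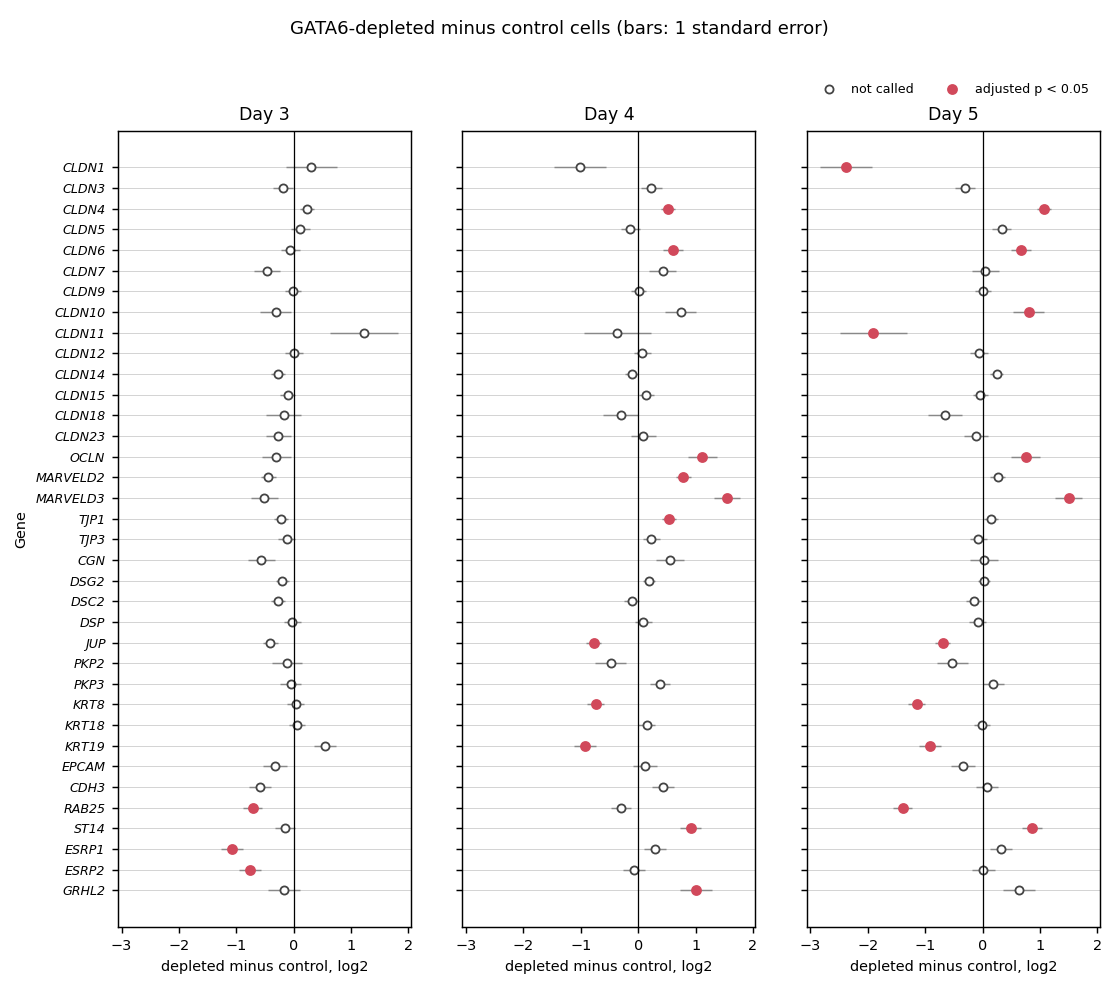
Log2 difference between depleted and control cells (horizontal axis) for the 36 genes (rows) at days 3, 4 and 5, with bars of 1 standard error and filled points where the limma adjusted p was under 0.05. At day 3 only RAB25, ESRP1 and ESRP2 are filled, all to the left, and at days 4 and 5 OCLN, MARVELD3, CLDN4, CLDN6 and ST14 are filled to the right and JUP, KRT8 and KRT19 to the left.

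Depleted cells at day 5 were then set against pluripotent control cells, the starting state. Of the 36 genes 6 were higher and 1 lower, where 8.8% of all genes were higher and 9.71% lower (18.5% in either direction). Their share was 19.4%, near that of all genes. KRT19 was 1.16 higher (SE 0.19), KRT8 1.23 (SE 0.15), KRT18 0.59 (SE 0.14), DSP 1.04 (SE 0.15), CLDN23 1.40 (SE 0.22) and CLDN9 0.47 (SE 0.14), while RAB25 was 0.58 lower (SE 0.17). The calls of KRT18, CLDN9 and RAB25 ended when 1 of 2 or 3 arrays was left out (limma adjusted p 0.0503 to 0.192), and 4 members were called without depleted day 5 replicate 1.

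Several genes that had been low at day 3 stood near their day 0 level in these cells. ESRP1, at 7.65 and 7.61 in depleted cells at day 3, was 9.32 and 9.45 at day 5, and 9.45 and 9.33 at day 0 (difference −0.01, 95% interval −0.42 to 0.40). EPCAM differed from day 0 by 0.0048 (−0.45 to 0.46) and CLDN6 by 0.04 (−0.33 to 0.41). CLDN4 differed by 0.14 (−0.12 to 0.41), and by 0.79 and 0.98 on its other probe sets, both called. OCLN was 0.68 above day 0 (0.14 to 1.23) and MARVELD3 differed from it by −0.57 (−1.07 to −0.06), neither called, although another probe set of each was (0.78 and −0.65). The pluripotency list averaged 10.17 and 10.39 at day 0 and 9.71 and 9.73 in these cells, with 4 of 9 markers lower.

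Rescue cells differed from depleted cells of the same day in 17 of the 36 genes, 12 higher and 5 lower, where 21.9% of all genes were higher and 17.6% lower (39.5% in either direction). The called share was 47.2%, and the median difference was 0.09 over the 36 genes and −0.03 over all genes. The 2 rescue arrays had the smallest spread of the 8 pairs (SD 0.105 over all genes, against 0.163 to 0.245) and, counted as 1 sample, gave 13 calls. This comparison and the next share the rescue arrays. By the study's methods rescue cells were a further selected line, made from depleted cells, and doxycycline was given to no other group. The effects of line selection, of doxycycline and of the cDNA therefore cannot be told apart.

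CLDN18 was 7.06 and 7.02 in rescue cells and 2.85 and 2.92 in depleted cells. It was 4.16 higher (SE 0.30, limma adjusted p 3.83e-07), and 1.37 and 1.93 higher on its dimmer probe sets, both called. No fold is given, since the depleted arrays were among the dim ones. CLDN3, a sealing claudin of gut and lung epithelium, was 7.93 and 7.90 in rescue and 4.32 and 4.29 in depleted cells, 3.61 higher (SE 0.18, limma adjusted p 2.76e-08) or 12.2-fold. CLDN1 was 8.68 and 8.78 against 5.61 and 6.12, 2.87 higher (SE 0.45), and CLDN11 9.11 and 9.12 against 6.90 and 6.86, 2.24 higher (SE 0.59, limma adjusted p 0.00831). For each of these 4 claudins both rescue arrays lay above both depleted arrays by more than 2.

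Of the 8 other genes that were higher in rescue than in depleted cells, 3 were desmosome genes, 2 keratins, 2 surface and traffic genes and 1 a tight junction scaffold. JUP was 1.35 higher (SE 0.13), DSC2, a desmosomal cadherin, 1.04 (SE 0.13), RAB25 1.12 (SE 0.17) and EPCAM 0.89 (SE 0.21). One of the 6 probe sets of DSC2 gave 0.12 (limma adjusted p 0.796). PKP2, KRT19, TJP1 and KRT8 were higher by 0.57 to 0.88, and 4 of the 7 other KRT8 probe sets were not called (0.14 to 0.38). OCLN (0.10, 95% interval −0.44 to 0.65), ST14 (0.08, −0.30 to 0.47), MARVELD2 (0.03, −0.25 to 0.31) and CLDN4 (−0.13, −0.39 to 0.14), which had been higher in depleted than in control cells at day 4, were not called. The dimmer MARVELD2 probe sets gave −0.89 and −0.63, both called. Beside these, 8 of the 9 pluripotency markers and 6 of the 9 mesoderm markers were lower in rescue than in depleted cells, and 9 of the 10 definitive endoderm markers were higher.

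CLDN10 and CDH3 were the lowest in rescue cells. CLDN10 was 4.11 and 4.27 in rescue and 6.98 and 6.70 in depleted cells, 2.65 lower (SE 0.27, limma adjusted p 5.89e-06), and no other array read under 5.76. CDH3 was 7.12 and 7.29 against 8.71 and 8.49, 1.39 lower (SE 0.19). MARVELD3 was 0.72 lower (SE 0.23), ESRP1 0.66 (SE 0.19) and CLDN6 0.50 (SE 0.17), and each of these 3 calls ended when single arrays of either group were left out (limma adjusted p 0.0578 to 0.252) and when the rescue arrays were counted as 1 sample (0.063 to 0.118).

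Against control cells at day 5, 9 of the 36 genes were higher and 3 lower in rescue cells, where 13.8% of all genes were higher and 9.57% lower (23.3% in either direction). CLDN18, at 2.87 and 4.21 in control cells, was 3.50 higher in rescue (SE 0.30, limma adjusted p 7.76e-06), and its dimmer probe sets gave 1.73 and 1.32, both called. CLDN3, at 4.24 and 4.99 in control cells, was 3.30 higher (SE 0.18, limma adjusted p 1.5e-07). CLDN10, at 6.31 and 5.76, was 1.84 lower (SE 0.27, limma adjusted p 0.000367). CDH3, at 8.29 and 8.76, was 1.31 lower (SE 0.19, limma adjusted p 0.000369). In all 4 genes the rescue arrays lay outside the range of the other 14 arrays, above it for CLDN18 and CLDN3 and below it for CLDN10 and CDH3.

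Some genes that were higher in depleted cells were also higher in rescue than in control cells. CLDN4 was 0.95 higher (SE 0.12), with 2.13 and 1.60 on its other probe sets, and ST14 0.94 higher (SE 0.18), with 0.14 on its other probe set (limma adjusted p 0.602). TJP1 was 0.79 higher (SE 0.12), while in depleted cells it had been called higher at day 4 but not at day 5 (0.14). DSC2 and JUP were also higher in rescue than in control cells, by 0.88 (SE 0.13) and 0.65 (SE 0.13). They had not been higher in depleted cells, where DSC2 was not called against control and JUP was lower. One other DSC2 probe set gave −0.58 without a call (limma adjusted p 0.198). OCLN was 0.85 higher (SE 0.25) and MARVELD3 0.78 higher (SE 0.23), and KRT8 was 0.58 lower (SE 0.15). These last 3 calls ended without either rescue array (limma adjusted p 0.0530 to 0.202 over the arrays concerned) and with the rescue arrays as 1 sample (0.0697 to 0.120), which left 9 calls in all. The other probe sets of MARVELD3 gave 0.54 and 0.29 without a call. One dimmer MARVELD2 probe set gave −0.91 (limma adjusted p 0.0064), where the one used gave 0.29 without a call.

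Of the 6 genes that were lower in depleted than in control cells at day 5, 4 were not called between rescue and control. Their differences were 0.48 for CLDN1 (95% interval −0.49 to 1.46), 0.33 for CLDN11 (−0.95 to 1.60), −0.17 for KRT19 (−0.59 to 0.24) and −0.27 for RAB25 (−0.64 to 0.10), intervals that leave room for a doubling of CLDN1 and CLDN11. The other two, JUP and KRT8, were called, JUP higher and KRT8 lower in rescue cells. The pluripotency list averaged 7.58 on both rescue arrays, against 8.96 and 9.11 in control cells at day 5, and the definitive endoderm list 8.90 and 8.91, against 9.35 and 9.66. Of the latter 6 of 10 markers were lower in rescue and 1, FOXA1, was 4.15 higher. The part of these lists in the claudin differences was not tested.

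**Figure D4:**
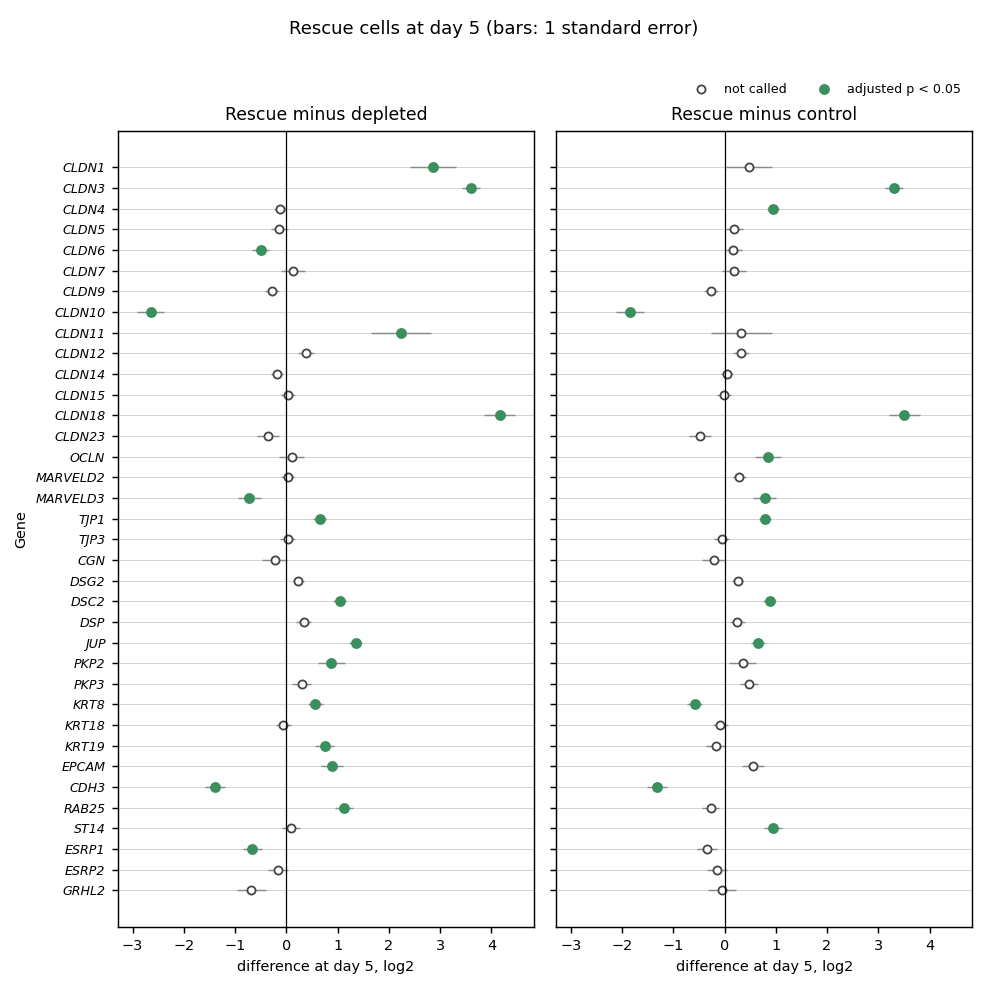
Log2 difference at day 5 (horizontal axis) between rescue and depleted cells (left) and between rescue and control cells (right) for the 36 genes (rows), with bars of 1 standard error and filled points where the limma adjusted p was under 0.05. CLDN3 and CLDN18 lie more than 3 to the right and CLDN10 at −2.65 and −1.84 in the 2 panels, while CLDN1, CLDN11 and RAB25 are filled on the left only.

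Related genes outside the set were counted in the same fit. Of 8 further claudins measured, with a list mean of at most 3.69 on every array, CLDN19 was called in 7 comparisons, 0.92 higher in control cells at day 5 than at day 0 and 1.24 lower in depleted than in control cells at day 5. Of 22 further tight junction and polarity genes 9 were lower and 3 higher in depleted cells at day 5, with a median of −0.25. Of all genes 16% were lower and 16.5% higher there. AMOT, an angiomotin that links junctions to Hippo signalling, was 3.68 lower, the scaffold MAGI3 2.85 lower, the cingulin relative CGNL1 2.47 lower and AMOTL1 1.01 lower. In rescue against depleted cells 7 of these 22 were higher and 5 lower (all genes: 21.9% and 17.6%), with AMOT 1.97 and MAGI3 1.75 higher. Against control cells 2 were higher and 5 lower (all genes: 13.8% and 9.57%), with CGNL1 3.16 lower.

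Adherens junction genes, which join neighbouring cells through cadherins and actin, gave 4 higher and 3 lower of 12 in depleted cells at day 5. Over all genes 16.5% were higher and 16% lower in that comparison, the share for each list below as well. CDH1, or E-cadherin, was 1.07 higher and CDH2, or N-cadherin, 1.22 lower, while NECTIN3 was 1.57 and NECTIN1 0.96 higher. In control cells from day 0 to day 5 CDH1 fell by 1.33 and CDH2 rose by 1.84. Among 18 further desmosome and keratin genes 4 were higher and none lower in depleted cells at day 5, with PPL, or periplakin, 1.87 higher. Among 24 further epithelial regulators and proteases 8 were higher and 3 lower, with KLF4 2.05, PROM1 1.99, MAL2 1.47 and GRHL3 1.13 higher. Epithelial repressors were 4 of 10 higher and none lower at day 5, with TWIST1 5.39 and SNAI2 2.77 higher, and their list mean was 5.16 and 5.28 in depleted against 4.06 and 4.41 in control cells.

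A group of 7 genes passed the test in none of the comparisons. They were CLDN5, CLDN12, CLDN14, CLDN15, TJP3, DSG2 and PKP3. CLDN12 stayed between 7.27 and 7.89, CLDN15 between 5.23 and 5.77 and the desmosomal cadherin DSG2 between 9.82 and 10.24 on all 16 arrays, while the plakophilin PKP3 ranged from 5.23 to 6.43. CLDN5, CLDN14 and TJP3 were the dim genes named above, so that a change in them may not have been measurable.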

How the data were processed

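Per the labels and the study's methods, total RNA of 16 cultures was hybridised to PrimeView arrays, and the authors normalized the scans with robust multi-array averaging in Partek Genomics Suite (version not stated). The deposited values are log2 levels per probe set, from 1.04 to 13.75 for 49395 probe sets. No per-sample column was left unused (0). The platform annotation gave 44994 probe sets 1 gene, 1832 several and 2569 none. Only the first were used, and a gene took its probe set with the highest mean, which left 18132 genes. F11R was not analysed here.

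With limma 3.58.1 in R 4.3.3, 1 mean per group was fitted to all 16 arrays (8 residual degrees of freedom, 12.6 after moderation). Tests were two-sided, Benjamini-Hochberg adjustment ran over all 18132 genes, and 11 comparisons were made. The median standard error was 0.152, so that 2 arrays a group limit the precision. P-values measure the spread between these cultures. The text names in each comparison up to 8 called members in each direction by size, and of each further list up to 4, with others named because another probe set or array bears on them. Members and lists were chosen with earlier results of these data known. The fit was tested on simulated data. Alternatives were the mean of a gene's probe sets, each other probe set alone, a filter on dim genes, cyclic loess, other eBayes settings, only the groups compared, a replicate block, the methods' thresholds, a limit of 1 log2, the rescue arrays as 1 sample and each array left out. Promoter windows came from RefSeq (GRCh38.p14). Figures were drawn with matplotlib 3.10.9.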

Additional observations from a re-analysis of the deposited data

Results flagged for a closer look

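The effect of GATA6 depletion, as depleted minus control at the same day, differed between days 4 and 3 for 10 of the 36 genes by a test of the difference itself (limma, adjusted over all genes). Each value below is the effect of day 4 minus that of day 3. Among tight junction genes it was 2.06 for MARVELD3 (effects −0.51 and 1.54 at days 3 and 4), 1.42 for OCLN (−0.30 and 1.12), 1.23 for MARVELD2 (−0.45 and 0.79), 1.12 for CGN (−0.56 and 0.56) and 0.77 for TJP1 (−0.22 and 0.54). It was 1.36 for the splicing regulator ESRP1 (−1.07 and 0.29), 1.07 for the protease ST14 (−0.15 and 0.92) and 1.02 for P-cadherin CDH3 (−0.59 and 0.43). It was negative for 2 of the 3 keratins, −1.48 for KRT19 (0.55 and −0.93) and −0.78 for KRT8 (0.03 and −0.74), and KRT18 was not called (0.09). Adjusted p ranged from 0.000719 for MARVELD2 to 0.0411 for CGN. No group held more than 2 arrays, so that no array could be tested as an outlier within its group.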

How the results depend on the processing

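Of 104 differences of named members, all kept their direction and their call with other eBayes settings, all 101 that a filter on dim genes left did, and 102 did with the mean of a gene's probe sets and with cyclic loess. The lone groups compared ended 15 calls, and averaging the rescue arrays ended 9. Over 1664 values without 1 array, 113 lost the call and none turned. On another probe set alone 33 of 169 lost the call and 5 turned: ST14 to 0.17 (control day 3 minus day 0), CLDN18 to −0.14 and GRHL2 to 0.036 (control day 5 minus day 0), GRHL2 to −0.11 (depleted minus control, day 4) and DSC2 to −0.58 (rescue minus control). The cause was not tested. Dim genes and 2 arrays a group limit what could be called.

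Counts of members called are given in the order control day 3 minus 0, 5 minus 3, 5 minus 0, depleted minus control at days 3, 4 and 5, depleted day 5 minus day 0, rescue minus depleted, rescue minus control, and the change of effect from day 3 to 4 and from day 4 to 5. Without 1 array they ranged over 17 to 21, 7 to 18, 14 to 21, 0 to 5, 8 to 14, 8 to 13, 4 to 8, 12 to 18, 9 to 14, 5 to 11 and 0 to 1. Under the methods' thresholds they were 1, 5, 2, 1, 0, 1, 0, 4, 3, 1 and 1. With a difference of at least 1 log2 as well, the first 9 were 13, 6, 10, 1, 3, 6, 4, 9 and 4. With only the groups compared, the first 2 were 13 and 5 and that of depletion at day 3 was 0. The latter was 1 with the rescue arrays averaged, and depleted day 5 minus day 0 gave 11 with the mean of probe sets.

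The replicate numbers paired the cultures weakly at most: over 28 pairs of groups the deviations correlated at −0.07 to 0.25, and 4 pairs were over 0.1. The highest were control day 3 with control day 4 (0.25) and control day 4 with control day 5 (0.23). Whether control cultures of the same number shared a round of differentiation was not known. With the replicate number as a block the counts were 21, 15, 20, 3, 12, 13, 10, 18, 13, 11 and 0, and none of the 104 calls ended.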

Other observations

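Within control cells the arrays of a pair differed in the same genes at each of days 3, 4 and 5. CLDN1 was 5.26 and 6.41, then 6.50 and 7.26, then 7.58 and 8.91, lower on replicate 1 each time, and CLDN11 was 7.69 and 9.29, then 7.50 and 9.03, then 7.87 and 9.71. TWIST1, a repressor of epithelial genes, was 5.52 and 4.29, then 5.15 and 3.46, then 4.47 and 3.72, higher on replicate 1 each time. Whether equal replicate numbers tie cultures of different days together was not known, and with 2 arrays at each day no relation between these genes was tested. In rescue cells CLDN1 was 8.68 and 8.78 and CLDN11 was 9.11 and 9.12.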
